A study of Brassica rapa and Brassica rapa x Brassica nigra and Brassica nigra with 18 samples.

Results

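A set of 171 genes of the Brassica A genome was abundant in anthers of Brassica rapa at meiosis and fell steeply by mitosis, both there and in an AB allohaploid. The genes were picked from 36454 A genes in a table of 79644 gene identifiers. A gene entered the set when it reached at least 50 A-CPM in B. rapa at meiosis, where A-CPM is a gene's count per 1000000 counts on A genes in the same library. Its level at meiosis also had to be at least 32 times that at mitosis in B. rapa and at least 8 times in the allohaploid, with 0.5 added to each mean. Finally, B. rapa had to hold at least 90% of the summed CPM of both parents. These limits used the stage changes themselves, so the falls below describe the set, support nothing further and are given without p-values.

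The anthers came from B. rapa (genome AA), B. nigra (genome BB) and the synthetic allohaploid AB, in which B. rapa was the mother and B. nigra the father. Each was sampled as young anther at meiosis, the stage of sporogenesis, and as anther at mitosis, the stage of gametogenesis, with 3 libraries in each of the 6 groups and no treatment. The labels put the cross and the word haploid on all samples, the parents included, and the genome label is what tells the plants apart. How many plants or buds went into a library, and whether a group's libraries had separate plants behind them, is not stated in the sources used here. The p-values below therefore cover the spread among libraries only, which may be technical. The totals ran from 9782001 to 12161111 counts, and at meiosis A genes held 92.5% of them in AA, 49.1% for AB and 4.84% for BB.

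Anthers at meiosis hold the spore mother cells that divide into microspores, together with the tapetum, the nurse layer that surrounds them. Genes for chromosome pairing, for tapetal secretion and for the first pollen wall are known to be active at that time. By the time the microspores divide, meiosis is over, the tapetum is breaking down and the pollen grain's own genes take over. In whole anthers, fewer cells of a type and less RNA per cell cannot be told apart. Gene names are not paired with the identifiers in the files, and none of the 171 was found in the reference gene table, so neither the tissue markers nor the roles of single genes were used here.

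As a group the 171 genes made up 5.63% ± 0.0430 of all A counts in AA at meiosis and 0.0199% ± 0.000776 at mitosis (SD, n = 3 libraries here and below). In AB they took 9.29% ± 0.163 at meiosis and 0.0941% ± 0.0121 at mitosis. The 3 AA libraries at meiosis stood at 5.60%, 5.61% and 5.68%, and the 3 AB libraries at 9.33%, 9.11% and 9.43%. Every AB library was thus above every AA library at meiosis. At mitosis the AA libraries held 0.0203%, 0.0190% and 0.0203%, against 0.0812%, 0.0960% and 0.105% in AB. The groups did not overlap at that stage either, and the AB libraries were more spread out. The limits of 32-fold in AA and 8-fold in AB favour a higher share in AB at mitosis, so nothing is read from that order. Out of all counts of a library, where AB has to share its total with B genes, the set took 5.21% in AA and 4.56% in AB at meiosis.

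**Figure D1:**
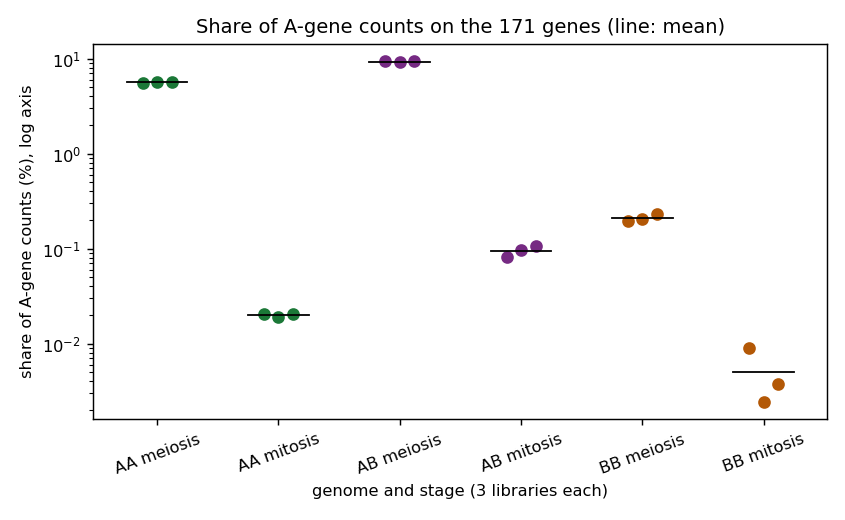
Share of the A-gene counts that fell on the 171 genes, in percent on a log axis, for each library (points) and the mean of each group (line). AA fell from 5.63% to 0.0199% and AB from 9.29% to 0.0941%, and the share in BB, which has no A genome, was 0.210% at meiosis.

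A few genes carried much of the larger AB share. The 5 genes with the most A-CPM in AA at meiosis made up 41.5% ± 0.284 of the set's counts in AA and 53.7% ± 0.772 in AB at that stage. Without these 5, the share of the A counts was 3.29% ± 0.00919 in AA and 4.30% ± 0.00717 in AB at meiosis. At mitosis it was 0.0182% and 0.0724%, under the same unequal limits on the falls. Of these 5 genes, 4 were called higher in AB than in AA at meiosis and 1 lower.

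Levels within the set were spread widely. In AA at meiosis the lowest gene stood at 51.1 A-CPM, the median at 136 and the highest at 11649. Of the 171 genes, 113 reached 100 A-CPM, 18 reached 500 and 5 reached 1000. Coding lengths, recovered from the deposited FPKM values and counts, ran from 246 to 3312 bp with a median of 945. The median was 981 bp in the 4045 other A genes that met the limits on level and parental share, and 1017 bp over the 31362 A genes that had a length. Scaled per kilobase of coding length, the median level at meiosis was 160 A-CPM per kb in AA and 146 in AB.

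AB did not have to meet the minimum level, and 33 of the 171 genes stood under 50 A-CPM in AB at meiosis, down to 8.38.

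**Figure D2:**
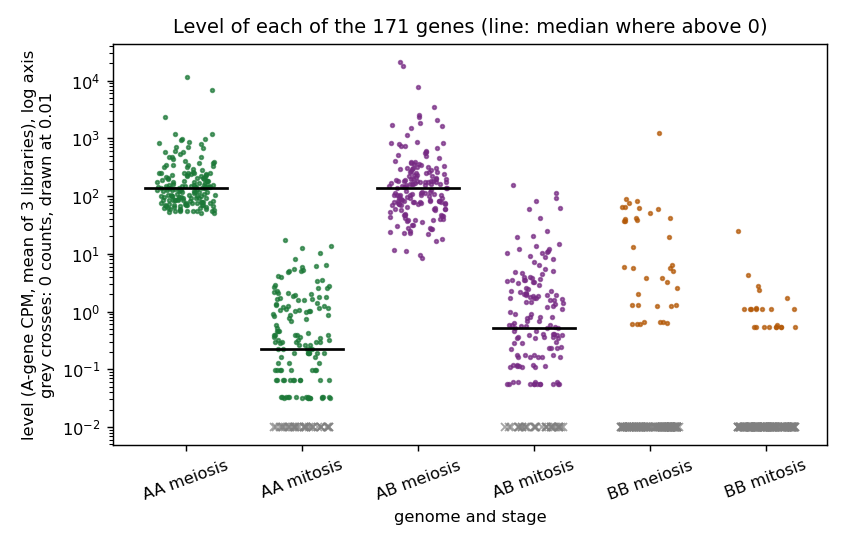
Level of each of the 171 genes in A-CPM (mean of 3 libraries, log axis) in the 6 groups, with genes at 0 counts as grey crosses at 0.01 and the median as a line. The medians were 136 at meiosis and 0.227 at mitosis in AA, and 137 and 0.508 in AB, while most genes had 0 counts in BB.

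The highest gene per length was BjuA038096, with a coding length of 246 bp. Its AA libraries held 11594, 11505 and 11850 A-CPM at meiosis, and its AB libraries 20601, 20791 and 21077. At mitosis it stood at 0.195, 0 and 0.385 A-CPM in AA and at 0, 0 and 5.95 in AB. AB was thus above AA in every library at meiosis, while the level at mitosis in AB rested on replicate 3 alone, with 36 counts there and none in the other libraries. The log2 difference between AB and AA at meiosis was 0.99 (SE 0.13, adjusted p = 5.2e-07 by the quasi-likelihood test of edgeR). The adjustment was made over all A genes tested, after Benjamini and Hochberg. Both meiosis levels had entered the limits, so the single-gene p-values at meiosis here and below describe genes of a chosen set.

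BjuA010165, the next gene per length, has a coding length of 291 bp. It held 6866, 6999 and 7170 A-CPM in AA at meiosis, and 18634, 16244 and 19141 in AB. The 3 AB libraries at meiosis again lay above the AA libraries. At mitosis 1.36, 0.292 and 1.35 A-CPM were left in AA and 5.72, 7.26 and 13.6 in AB. The log2 difference at meiosis was 1.52 (SE 0.09, edgeR adjusted p = 1.45e-12).

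The fall in AA was usually far beyond the limit of 32-fold. The folds with 0.5 added ran from 32.3 to 16807, with a median of 137. They lay between 32 and 64 in 27 genes, between 64 and 128 in 51, between 128 and 256 in 48, between 256 and 1024 in 38, and above that in 7. At mitosis 32 genes had 0 counts over the 3 AA libraries and 38 had 1 to 3 counts, where 3 counts correspond to 0.0969 A-CPM. Because 0.5 was added to each mean, the folds of such genes, in AA and in AB, are set mostly by their level at meiosis. The median gene kept 0.154% of its meiosis level in AA, and 136 of 171 genes kept less than 1%.

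By A-CPM the fall in AB was somewhat shallower, under a limit that was also lower. Its folds ran from 8.01 to 8385, with a median of 95.7. In AB 135 genes fell at least 32-fold too, 16 fell 16- to 32-fold and 20 fell 8- to 16-fold. The median gene kept 0.395% of its meiosis level in AB, the gene with the most kept 12.3%, and 109 genes kept less than 1%. No count was left at mitosis for 30 genes in AB, and 15 genes had none in either AA or AB. All 171 genes passed the filter on low counts and were called lower at mitosis in both AA and AB by edgeR, where 37.5% and 36.4% of the 23143 A genes tested were called lower, but nothing is read from this because the limits had used both falls.

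Membership was also taken from 2 replicates at a time, with the same replicate number left out of every group. This shows only how libraries of the same groups repeat, and these may be technical. Whether replicate numbers pair libraries across groups is not known. Chosen on replicates 2 and 3 alone, the set had 179 genes, of which 166 also met both fold limits in replicate 1. Chosen on replicates 1 and 3 it had 173 genes, of which 167 met them in replicate 2, and chosen on replicates 1 and 2 it had 177, of which 166 met them in replicate 3. The median fold in AA in the library left out was 139, 142 and 142. Between 168 and 170 of the genes of each choice were among the 171. At meiosis the median coefficient of variation between libraries was 3.13% in AA and 3.95% in AB, and at mitosis, where counts were few, it was 58.0% and 45.7%.

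Around 3 of the 4 limits the values inside and outside lay close together, and around the parental share they did not. The gene just inside the level limit stood at 51.1 A-CPM and the one just outside at 49.99. The fold in AA was 32.3 just inside and 31.4 just outside, and the fold in AB was 8.01 and 7.90. The lowest parental share inside was 96.5% and the highest outside 89.8%. Only 5 genes met every limit but the parental share. Another 16 genes met every limit but the fold in AB, with AB folds from 2.28 to 7.90. Of these 16, 5 were under 8 A-CPM in AB at meiosis already.

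AB and AA were compared at meiosis to see whether the set differed between the allohaploid and B. rapa before its fall. Among the 171 genes 72 were higher and 66 lower in AB, and 33 were not called (edgeR, adjusted p under 0.05 over all A genes). Over all 23143 A genes tested, 27.7% were higher and 25.8% lower, and the set's shares were 42.1% and 38.6%. The shares were 37.8% and 39.4% in the 4045 other A genes at the same minimum level. For the set the log2 difference had a median of 0.02 and quartiles of -0.49 and 0.61, and over all A genes tested the median was 0.00. The level in AA at meiosis was used by the limits, with a minimum of 50 A-CPM that AB did not have to meet. Both meiosis levels also entered the fold limits, so genes low in AB at meiosis could be left out. The calls and single-gene p-values at this stage therefore describe a set chosen partly on these levels.

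Changes of at least 2-fold at meiosis were found in 28 genes that were higher and 24 that were lower in AB. The background over all A genes was 11.5% higher and 12.4% lower, against 16.4% and 14.0% in the set. In the 4045 other genes at the same minimum level these changes took 3.68% and 10.8%. The genes called higher had a median log2 difference of 0.71 and those called lower of -0.77.

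The calls at meiosis were also counted by the level in AA. Of the 57 genes with the highest level in AA, from 185 to 11649 A-CPM, 30 were higher and 16 lower in AB. Of the next 57, 23 were higher and 22 lower, and of the 57 with the lowest level, from 51.1 to 99.3 A-CPM, 19 were higher and 28 lower. Among the 20 genes with the most A-CPM in AA, 14 were higher in AB and 4 lower. The 57 genes with the longest coding sequences, from 1146 to 3312 bp, had 31 higher and 15 lower, and the 57 with the shortest, up to 747 bp, had 20 higher and 25 lower. These are counts within the set, and the differences between these classes were not tested. The same classes were not counted in the other A genes, so whether these splits are particular to the set is not known.

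**Figure D3:**
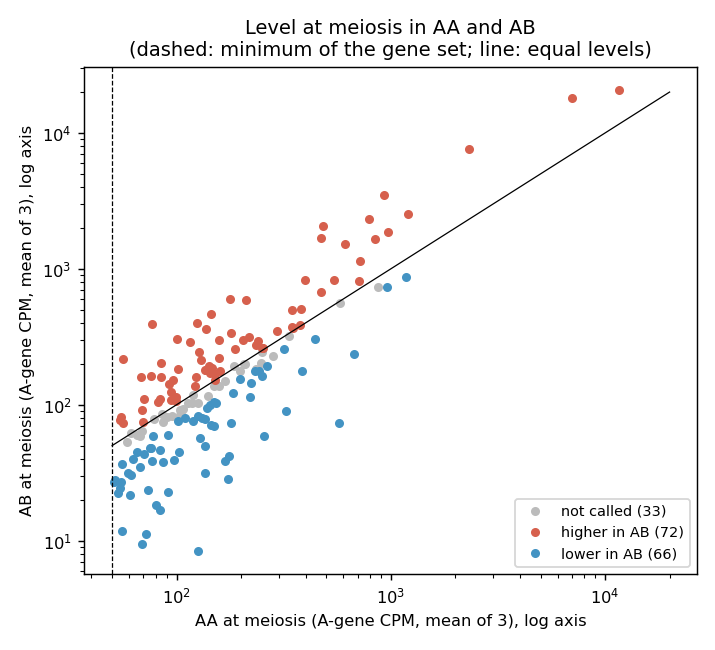
Level of each of the 171 genes at meiosis in AB against AA (A-CPM, mean of 3 libraries, log axes), coloured by the call of edgeR's test, with equal levels as a line and the minimum of 50 A-CPM dashed. Of the 171 genes 72 were higher and 66 lower in AB, and all 3 genes above 2000 A-CPM in AA lay above the line.

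BjuA039899 and BjuA014117 had the largest increases in AB at meiosis. BjuA039899 stood at 75.1, 81.4 and 74.2 A-CPM in AA and at 402, 379 and 388 in AB, a log2 difference of 2.50 (SE 0.06, edgeR adjusted p = 5.86e-20). BjuA014117 stood at 506, 469 and 468 A-CPM in AA and at 2050.4, 2086 and 2067 in AB, a log2 difference of 2.26 (SE 0.08, edgeR adjusted p = 1.47e-16). In both genes the AB libraries were far above the AA libraries and the replicates lay close together. At mitosis they parted: BjuA039899 had only 11 counts in AA and 4 in AB, while BjuA014117 kept 41.3 ± 10.7 A-CPM in AB. The 11 and 4 counts give no fold as they stand. At mitosis AA libraries held at least 10268402 A counts and AB libraries at most 6050088.

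BjuA038614 and BjuA006689 had the largest decreases. BjuA038614 stood at 127, 126 and 126 A-CPM in AA and at 7.90, 9.58 and 7.64 in AB, a log2 difference of -3.75 (SE 0.13, edgeR adjusted p = 2.45e-16). BjuA006689 stood at 565, 575 and 573 A-CPM in AA and at 75.3, 74.4 and 72.1 in AB, a log2 difference of -2.79 (SE 0.07, edgeR adjusted p = 3.82e-20). Both were low in all 3 AB libraries and had 0 counts in every BB library. For BjuA038614, 3 counts in AB and 0 in AA remained at mitosis, too few for a fold.

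AB also carries the B genome, and reads of a near-identical B copy can be counted on an A gene. BB, which has no A genome, placed no count on 119 of the 171 genes in any of its 6 libraries, which is 69.6% of the set. This was so for 46.4% of the 4045 other A genes at the same minimum level and parental share. Among the 119 genes, 37 were higher and 53 lower in AB at meiosis. Among the 52 genes with any BB count, 35 were higher and 13 lower. The difference between these splits, and the part of B copies in these levels, was not tested. The same split was not counted in the other A genes, so whether it is particular to the set is not known. Where a group has 0 counts in all 3 libraries, as many as 3 counts in the group are still possible.

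The scaling moved the balance at meiosis. With library sizes from all genes, which lowers A genes in AB and shifts the median of all A genes to -0.33, 51 genes of the set were higher and 93 lower. Upper-quartile factors gave 67 and 69, so no direction of the set as a whole is given for this stage.

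The levels at mitosis were bounded by the limits in both AA and AB, so the counts at that stage describe the set and are given without p-values for single genes. The limits allowed AB a level at mitosis of 1 part in 8 of its meiosis level and AA only 1 part in 32, which favours genes that are higher in AB. Of the 171 genes, 53 were higher and 12 lower than in AA, and 106 were not called, of which 89 stood under 2 A-CPM in both. Over all A genes tested, 24.2% were higher and 28.1% lower, against 31.0% and 7.02% in the set. In the 4045 other A genes at the same minimum level the shares were 28.2% and 39.6%. Of the 53, 51 were higher at least 2-fold, and 7 of the 12 were lower by as much, where the background was 11.4% and 13%. Among the 135 genes that fell at least 32-fold in AB too, 28 were higher and 12 lower.

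Most levels at mitosis were low, but not all in AB. There 6 genes stood at 50 A-CPM or more, with the highest at 155, while the highest in AA stood at 17.5. The 53 genes called higher had a median of 2.14 A-CPM in AB and 0.227 in AA, and they kept a median of 2.20% of their AB meiosis level. Of these 53, 10 had 0 counts in AA and 9 had fewer than 10 counts in each group. A small number of genes held most of what was left in AB: the 5 highest there made up 53.4% of the set's A-CPM at mitosis and the 10 highest 71.0%. In AA the 10 highest made up 46.2%. With library sizes from all genes 42 genes were higher and 26 lower at mitosis, where the median of all A genes moved to -0.63, and in a fit of the AA and AB libraries at mitosis alone only 59 of the 171 genes passed the filter, with 27 higher and 5 lower. The others passed through the meiosis libraries, where they are high.

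BjuA014117 and BjuA033229 showed the largest increases at mitosis among genes with counts in both. BjuA014117 had 0, 0.0972 and 0 A-CPM in AA at mitosis and 29.3, 44.4 and 50.1 in AB. Its 1 count in AA, in replicate 2, against 718 in AB gives a ratio of 1285, with an exact 95% counting interval from 229.9 to 50831. BjuA033229 had 0.390, 0.486 and 0.288 A-CPM in AA and 56.6, 82.0 and 111 in AB, a log2 difference of 7.44. This rested on 12 counts in AA and 1449 in AB. In both genes every AB library was above every AA library.

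Both genes also had counts in BB at meiosis. BjuA033229 received 594, 571 and 755 counts in the BB libraries at meiosis, against 43506, 44182 and 43541 in AB. BjuA014117 received 29, 33 and 35 counts in BB and 11676, 11973 and 11897 in AB. Whether B copies contribute to the AB counts of these genes was not tested. At mitosis BjuA033229 had 18, 11 and 15 counts in BB and 317, 463 and 669 in AB. Over the set, 29 of the 119 genes with no BB count were higher in AB at mitosis and 11 lower, and of the 52 genes with BB counts 24 were higher and 1 lower. This split was not counted in the other A genes either.

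BjuA006486 and BjuA011344 were lower in AB at mitosis. BjuA006486 stood at 3.02, 2.62 and 2.21 A-CPM in AA and at 0.357, 1.06 and 0.496 in AB, a log2 difference of -2.28. This rested on 81 counts in AA and 11 in AB. BjuA011344 stood at 7.30, 6.22 and 5.96 A-CPM in AA and at 3.57, 3.90 and 4.30 in AB, a log2 difference of -0.99. It had 201 counts in AA and 68 in AB. Neither gene's groups overlapped, and at meiosis both genes had been higher in AB.

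**Figure D4:**
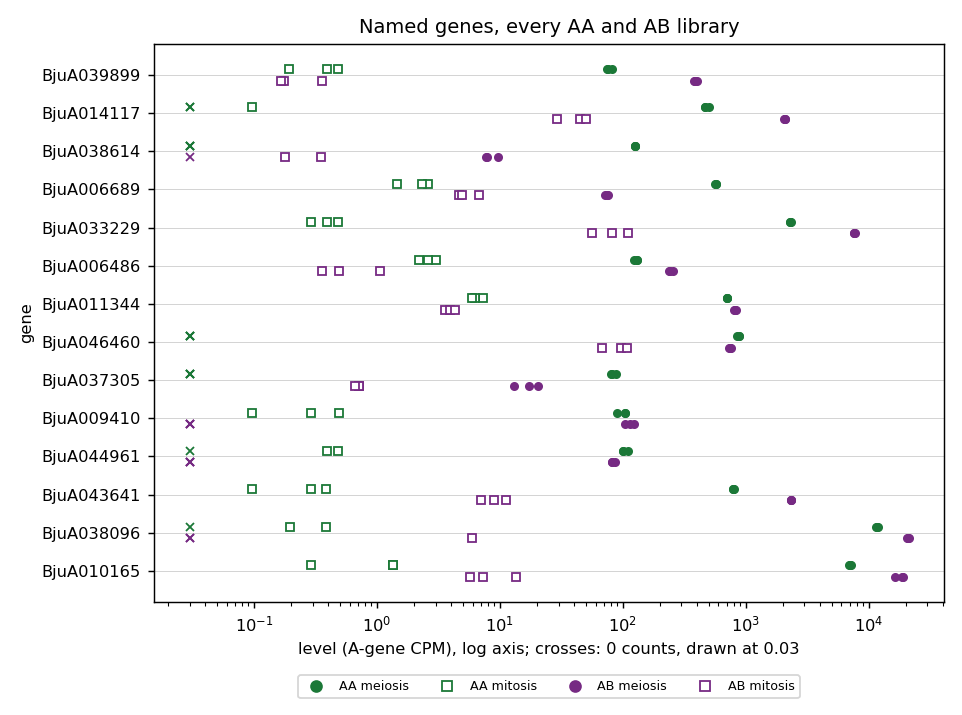
Level in A-CPM (log axis) of the 14 named genes in every AA and AB library, with filled circles for meiosis, open squares for mitosis and crosses at 0.03 for libraries with 0 counts. BjuA046460, BjuA033229 and BjuA014117 kept 91.1, 83.1 and 41.3 A-CPM in AB at mitosis, while AA had at most 0.486 A-CPM in any library for each of them.

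The depth of the fall was set side by side in AB and AA. Both falls had been used by the limits, at 32-fold in AA and at 8-fold in AB, so what follows describes the set and is no test of a difference. By A-CPM, the fold with 0.5 added was larger in AB for 58 genes and larger in AA for 113. The scaling factors of the fit shift the log2 stage change from A-CPM by 0.52 in AA and 0.10 in AB. With these factors the stage change was higher in AB for 98 genes and lower for 73. In the fit across all A genes, 51 were called as falling less in AB than in AA, 17 as falling more and 103 were not called. Among all A genes tested, 21.9% had a higher and 21.6% a lower stage change in AB, against 29.8% and 9.94% in the set. The shares were 35.1% and 37.6% in the 4045 other A genes at the same minimum level, both above those of the set. All 17 genes with a larger fall in AB were among the 135 that fell at least 32-fold in both, which the limit in AA all but requires. Of these 135 genes, 21 fell less. Of the 51 genes, 44 were also higher in AB at mitosis, 27 were lower in AB at meiosis, and 9 had 0 counts in AA at mitosis. The difference of falls is the AB to AA difference at mitosis less that at meiosis, so such overlaps are built in. Library sizes from all genes gave 44 with a smaller and 26 with a larger fall, with the median of all A genes at -0.27.

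**Figure D5:**
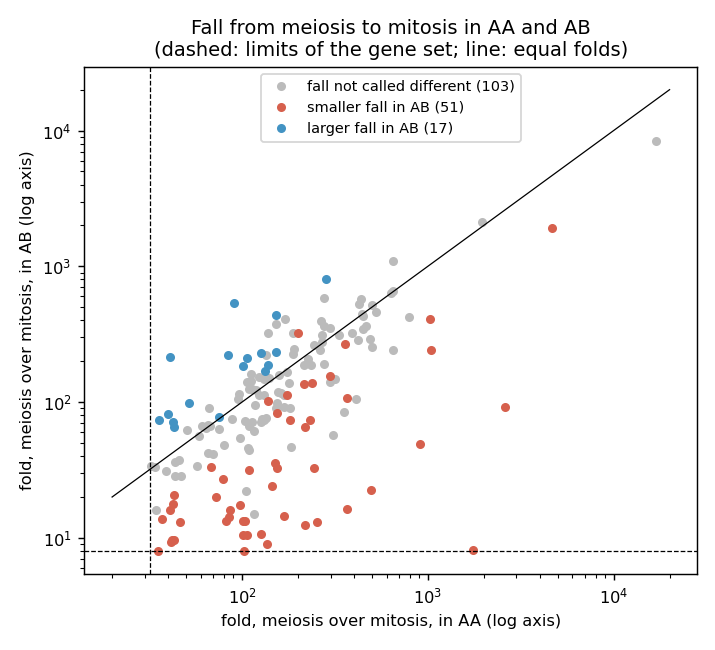
Fold of meiosis over mitosis in AB against AA for the 171 genes (0.5 added to each mean, log axes), coloured by the call for the difference of both falls in the fit across all A genes, with equal folds as a line and the limits dashed. By A-CPM 58 genes had the larger fold in AB and 113 in AA. In the fit, with its scaling factors, the stage change was higher in AB for 98 genes and lower for 73, and 51 were called as falling less in AB.

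BjuA046460 had the largest fitted difference between both falls. Its fold in AB was 8.09, just inside the limit of 8, which left out genes that fell less in AB. Its AA libraries stood at 856, 878 and 881 A-CPM at meiosis and at 0 counts at mitosis. Its AB libraries stood at 739, 724 and 758 A-CPM at meiosis and at 68.3, 97.0 and 108 at mitosis. At meiosis the level was thus not called different, with a log2 difference of -0.08 (SE 0.09, edgeR adjusted p = 0.462). At mitosis AB stood 944-fold above the 3 counts that 0 counts in AA allow, with the counting error of AB left out. This gene had no count in any BB library.

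BjuA037305 likewise had 0 counts in AA at mitosis, and 4 counts in each of the 3 AB libraries. On the A-CPM scale this is 7.16-fold above 3 counts in AA, with the counting error of AB left out. At meiosis it stood at 83.4 ± 4.26 A-CPM in AA and at 16.9 ± 3.79 in AB, so AB was lower at one stage and higher at the other. In the other direction, BjuA009410 and BjuA044961 had 0 counts in AB at mitosis and 9 counts each in AA. On the A-CPM scale this is 1.68-fold above 3 counts in AB, with the counting error of AA left out. The calls of both genes therefore rested on very few counts. BjuA044961 was no longer called when AA mitosis replicate 3 or AB mitosis replicate 3 was left out.

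In BB the stage change of the counts placed on A genes had not been used by the limits, which averaged BB over both stages. Only 15 of the 171 genes passed the filter on low counts in BB, all of them with 37.2 A-CPM or more at meiosis. All 15 were called lower at mitosis and none higher, where 32% of the 3081 A-labelled genes tested in BB were lower and 35.7% higher. Because genes with so few counts can pass only through the stage at which they are high, this count is a description. Without the filter 52 genes of the set were tested, with 18 called lower and 0 higher. Their log2 change was negative in 36 and positive in 16. Over all 10190 A-labelled genes in that fit, 1229 were lower and 1435 higher. In BB 132 of the 171 genes had 0 counts at meiosis and 148 at mitosis.

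At mitosis 9 of the 15 had 0 counts in BB. Among the others, BjuA043641 and BjuA033229 had the largest fitted changes. BjuA043641 stood at 67.5, 67.0 and 96.6 per 1000000 BB counts on A genes at meiosis, and at 0, 1.73 and 0 at mitosis. BjuA033229 stood at 1146, 1126 and 1402 at meiosis and at 29.3, 19.0 and 26.7 at mitosis. BjuA043641 thus had 121 counts at meiosis and 1 at mitosis, a ratio of 136 with an exact 95% counting interval from 23.9 to 5405. BjuA033229 had 1920 counts at meiosis and 44 at mitosis, a ratio of 48.9 with an interval of the same kind from 36.3 to 67.6. Its fitted log2 change was -5.13. Their falls in AA and AB had been required by the limits, and in AA BjuA043641 went from 788 ± 9.31 to 0.258 ± 0.147 A-CPM.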

How the data were processed

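The authors deposited raw counts per gene and FPKM values for 18 libraries. HTSeq 0.6.0, TopHat2, HISAT2 2.1.0 and Bowtie 1.0.1 are named in the submitters' processing notes. Neither their roles nor the build, annotation or strand setting is given in the sources used here. The deposited FPKM equal the count over a fixed gene length and the library total, and gave the coding lengths. A repeated column (1 in all) was not used. None of the identifiers matched the 51589 genes of the B. rapa reference table (0 matches), so markers of meiocytes, tapetum, late pollen and leaf could not be matched and no sequences are shown.

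The gene set, the limits and the tests were chosen with earlier results of these data known. A-CPM are counts per 1000000 of a library's A counts. A genes of the AA and AB libraries were fitted together with edgeR 4.0.16 in R 4.3.3 (quasi-likelihood F test on group means, TMM factors, edgeR's filter by group), with Benjamini-Hochberg adjustment over all genes tested and calls at 0.05. BB was fitted alone. TMM moves the fitted log2 difference from the ratio of A-CPM by 0.16 at meiosis and -0.27 at mitosis. Standard errors come from the F statistics. They are given at meiosis only, because with few counts at mitosis they can fall below counting error. Intervals cover counting error only, and floors cover only that of the group with 0 counts. Replicates differed beyond sampling noise (chi-square per degree of freedom from 2.30 to 6.91 over genes with at least 20 counts in a pair). Per contrast and direction, at most 2 identifiers are named: the largest log2 changes among called genes with at least 10 counts per library in the higher group and at least 1 in the lower, or, for the difference of falls, with at least 10 per library at meiosis in AA and AB and a mean of at least 1 at mitosis. The 2 highest genes per length in AA at meiosis are also named. DESeq2 1.42.0, other factors, filters, samples, limits and left-out libraries were alternatives. The fits were also run on simulated counts with the same spread for every gene and changes only in genes with high mean counts over the groups. Nothing is read from them for the few counts at mitosis.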

Additional observations from a re-analysis of the deposited data

How the results depend on the processing

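With edgeR, the counts of genes called moved by more than 1.5 times under 3 kinds of change. Library sizes from all genes gave 26 genes lower in AB at mitosis and 26 with a larger fall in AB. A fit of the 2 groups alone gave 27 higher and 5 lower at mitosis, with fewer genes past the filter. Keeping only genes with at least 32-fold in AB too, an alternative chosen after seeing the data, gave 42 lower at meiosis, 28 higher at mitosis and 21 with a smaller fall, with fewer genes by construction. A minimum of 100 A-CPM left 113 genes in the set. Without the 5 highest genes the shares of A counts were 3.29% and 0.0182% in AA, 4.30% and 0.0724% in AB, and 0.0837% in BB at meiosis. Leaving out 1 library at a time gave 68 to 74 genes higher and 62 to 69 lower at meiosis, 45 to 52 and 11 to 13 at mitosis, 44 to 53 with a smaller and 15 to 19 with a larger fall. Leaving out the same replicate number from every group gave 173 to 179 genes in the set. With the replicate number as a block, 71 were higher and 65 lower at meiosis, 53 and 12 at mitosis, and 49 and 16 fell less and more. Deviations of same-numbered libraries correlated between -0.03 and 0.02. Since the libraries may be technical, this cannot settle whether the numbers pair them. DESeq2 gave 72 and 62 at meiosis and 49 and 12 at mitosis. Of the named genes, BjuA044961 lost its call for the difference of falls without replicate 3 at mitosis, with a log2 value of -3.90 without the AA library and -4.49 without the AB library. With 1 count at mitosis each, BjuA014117 in AA and BjuA043641 in BB had fitted log2 values of 11.43 and -8.21 without the library that held it, against 9.59 and -6.20 with all libraries. The few counts at mitosis limit the precision there.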
